A study of Homo sapiens with 6 samples.

Results

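In order to describe the regulators of epithelial differentiation and epithelial splicing after VprBP depletion, the rows of ZNF750, OVOL1, OVOL2, GRHL1, GRHL3, PRDM1, ESRP1 and ESRP2 were read out from the gene counts of 6 RNA-seq samples, that is 8 genes of 21494, picked out by gene name, the names having been chosen with earlier results of these data known. The labels name G361, a human melanoma cell line, while their source field reads LD611. In 3 of the samples the cells expressed a control shRNA (Control sh, labelled WT) and in 3 an shRNA against DCAF1 (VprBP sh), the gene that encodes VprBP, a substrate receptor of a ubiquitin ligase to which the study assigns a histone kinase activity. The study's methods describe lentiviral delivery and puromycin selection for the shRNA against VprBP. No label says that the replicates came from separate cultures, so p-values measure only the spread between these samples, which may be technical. Each gene is given as a normalized count, its estimated count scaled by the upper quartile of the sample, and a gene was called when the edgeR quasi-likelihood test gave a Benjamini-Hochberg adjusted p under 0.05 and the fold change was over 2.

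These 8 genes act at successive layers of the epithelial program. GRHL1 and GRHL3 are Grainyhead-like transcription factors that activate genes of the epithelial barrier and of cell junctions, as does their paralog GRHL2. ZNF750 is a zinc finger factor that, in the epidermis, acts below TP63 to switch on late differentiation genes and to switch off progenitor genes, with the corepressors KDM1A, RCOR1, CTBP1 and CTBP2 as partners. OVOL1 and OVOL2 are zinc finger repressors that hold down mesenchymal genes such as ZEB1, and PRDM1 (also known as BLIMP1) is a repressor that takes part in the last steps of keratinocyte and B cell maturation. ESRP1 and ESRP2 bind pre-mRNA and set the epithelial pattern of alternative exons in genes such as FGFR2, CD44, ENAH and CTNND1. In bulk samples fewer cells expressing a gene and less RNA per cell cannot be told apart.

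Several facts of the whole series stand before the results. The totals of estimated counts lay between 18195949 and 26883948 per sample. DCAF1 had 797, 971 and 838 normalized counts in Control sh against 760, 507 and 481 in VprBP sh, and its log2 fold change of -0.58 (standard error, SE, 0.17, adjusted p = 0.0125 in edgeR) stayed under 2-fold. The melanocyte markers did not bear out the label of melanoma, since TYR, DCT, SOX10 and SLC45A2 had no row in the table analysed here, MLANA and TYRP1 had at most 5 counts in any sample, and the list summed to 199 to 236 normalized counts in Control sh against 244 to 308 in VprBP sh, carried mostly by MITF. The urothelial list summed to 93810 to 105208 in Control sh against 25088 to 28539 in VprBP sh, carried mostly by KRT5 and KRT7. KRT7 had a mean of 35085 in Control sh against 21576 in VprBP sh and was not called. UPK1B (650 against 0) and UPK2 (211 against 43.6) were called lower, and KRT20 and UPK3A had no row. Of the 6 tested genes of the urothelial list 5 were called, 2 higher and 3 lower, where 46.4% of all genes tested were called. The called genes included KRT5 (64989 ± 7916 against 3488 ± 1354, mean ± SD, n = 3) and GATA3. GATA3 had 8.11, 1.09 and 0 normalized counts in Control sh against 1764, 1386 and 1436 in VprBP sh. The fibroblast list summed to 755 to 803 and to 457 to 602, with 3 of 4 genes called lower, where 22% of all genes tested were called lower. Of the immune list only CD68 had a row, with 795 ± 220 and 3.64 ± 2.2. At most 3 counts in each VprBP sh library, beside a Control sh mean of 100 normalized counts or more, were found for 408 genes, and 158 genes showed the reverse. The mitochondrial share was 1.96% to 1.98% in Control sh against 4.1% to 4.48% in VprBP sh. Replicate 1 stood apart from replicates 2 and 3 in both groups, with a chi-square per degree of freedom of 17.6 to 29.1 in pairs with replicate 1 and of 2.5 and 2.36 in the pairs without it. Apart from that of replicate 1, these differences move with the groups compared below, and their part in the results was not tested.

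All 8 regulators were counted deeply enough to be tested. GRHL1, ZNF750, GRHL3 and ESRP2 were higher in VprBP-depleted cells, OVOL1 and PRDM1 were lower, and ESRP1 and OVOL2 were not called. That makes 6 of 8, against a background in which 46.4% of the 16756 genes tested were called, 24.5% higher and 22% lower. In 7 of the 8 the samples of the groups did not overlap, as was the case for 79.5% of all genes tested. The median log2 fold change was 0.54 for the 8 genes and 0.08 for all genes tested, and without regard to sign it was 1.51 and 0.92. Leaving out replicate 1 of both groups, an alternative chosen after the data were examined, also gave 6 calls.

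**Figure D1:**
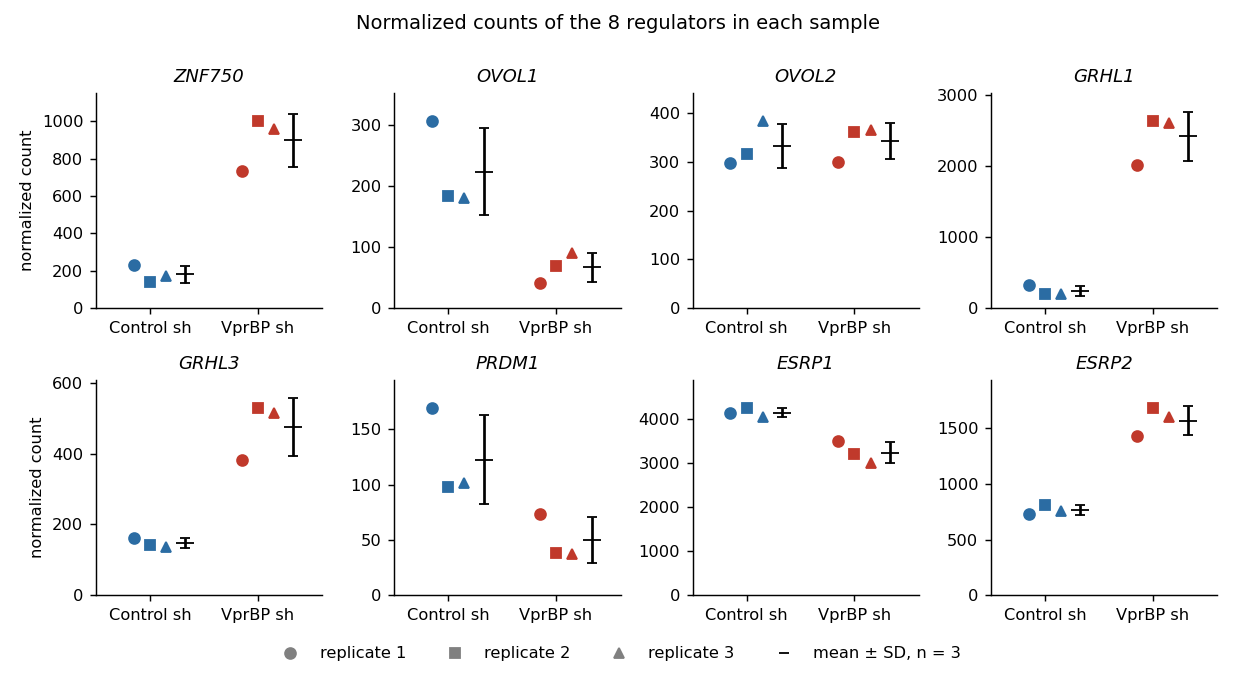
Normalized counts (y axis, linear from 0, one scale per gene) of the 8 regulators in each Control sh (blue) and VprBP sh (red) sample, with the mean ± SD of 3 samples in black. The groups overlap for OVOL2, between 299 and 384 against 300 to 366, and stand apart for the other 7 genes.

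GRHL1 showed the largest change of the 8. GRHL1 (ENSG00000134317.18, chr2:9951693-10002277 on the plus strand of hg38) had 327, 204 and 200 normalized counts in Control sh against 2021, 2630 and 2611 in VprBP sh. The lowest VprBP-depleted sample lay far above the highest control sample. The means of 244 ± 72 and 2421 ± 346 (SD, n = 3) gave a fitted log2 fold change of 3.32 (SE 0.20, 95% interval 2.87 to 3.77, adjusted p = 3.26e-07 in edgeR). GRHL1 shares no exon with another gene that has a row in the table.

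GRHL3 rose as well, by a smaller factor. GRHL3 (ENSG00000158055.17, chr1:24199558-24364482, plus strand) had 162, 141 and 137 normalized counts in Control sh against 382, 528 and 515 in VprBP sh, with replicate 1 the lowest of the VprBP-depleted samples, as it was for GRHL1. The log2 fold change was 1.70 (SE 0.16, 95% interval 1.34 to 2.06, adjusted p = 7.33e-06 in edgeR), from a mean of 147 ± 13.7 to 475 ± 80.9. STPG1, whose gene overlaps the end of GRHL3 on the opposite strand, had a log2 fold change of 0.07 (adjusted p = 0.618).

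The paralog GRHL2 was lower by a small step with upper quartile scaling. It had 3054, 2946 and 2985 normalized counts in Control sh against 2510, 2340 and 2333 in VprBP sh, without overlap. Its log2 fold change of -0.32 (SE 0.07, adjusted p = 0.00285 in edgeR) was not called. Scaling alone shifts log2 fold changes, whose median over all genes tested was 0.08 here and 0.29 with library size alone. As levels of different genes can be compared only per length, counts were divided by the kilobases of exon in each gene. On that scale GRHL2 lay 12.3 to 19.6 times above GRHL1 in the control samples and 1.17 to 1.63 times above it in the VprBP-depleted samples. The ratio of GRHL1 to GRHL3 went from 1.08, 0.776 and 0.786 to 2.84, 2.67 and 2.72. GRHL2 took 88.4% ± 1.73 of the summed level of the 3 Grainyhead-like genes in Control sh against 48.9% ± 4.97 in VprBP sh (SD, n = 3). The share of GRHL1 moved from 5.44% ± 1.39 to 37.4% ± 3.36 and that of GRHL3 from 6.14% ± 0.354 to 13.7% ± 1.61. The summed level was 560 ± 20.8 normalized counts per kilobase in Control sh against 811 ± 46 in VprBP sh. For each of these measures the groups did not overlap, and an exact two-sided permutation test gave p = 0.1, the lowest value reachable with 3 samples a group. With the longest transcript of each gene as its length, the share of GRHL2 was 85.6% in Control sh and 42.9% in VprBP sh. That of GRHL1 was then 6.7% and 41.6%. GRHL2 and GRHL1 were thus nearly level in VprBP sh by that length, and their order there is not resolved.

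**Figure D2:**
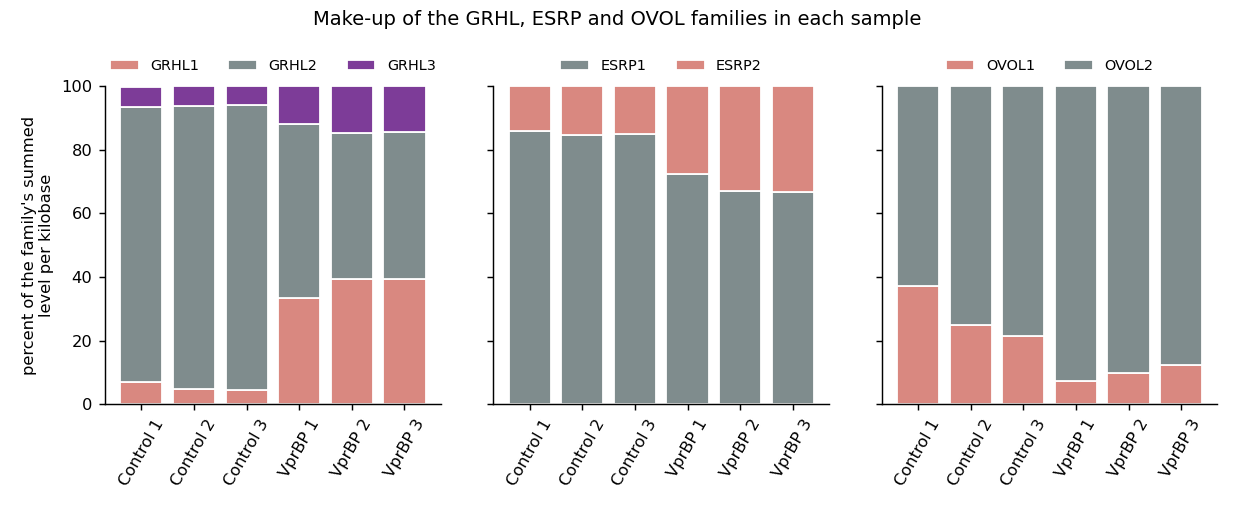
Percent (y axis) that each gene takes of its family's summed level per kilobase of exon, stacked to 100 for each of the 6 samples (x axis), for the GRHL, ESRP and OVOL families. The share of GRHL1 rises from at most 7.04% in a control sample to at least 33.5% in a VprBP-depleted sample, that of ESRP2 from at most 15.2% to at least 27.7%, and that of OVOL1 falls from at least 21.5% to at most 12.4%.

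The sequences upstream of GRHL1, GRHL3 and PRDM1 are shown because only these 3 of the 8 genes were among the RefSeq promoters used. GRHL1 and GRHL3 rose together while differing in the base composition of their start regions, and PRDM1 moved the opposite way. The stretches shown are the 250 bases before the RefSeq start (GRCh38.p14, plus strand), cut short for PRDM1 where an annotated untranslated region reaches the start. At the second start of PRDM1, 47 of the 250 bases lie in annotated exons and only 1 was cut. That stretch therefore still holds exon sequence. Capitals mark matches, on either strand, to any of 5 motifs that were searched, namely AACCGGTT for the Grainyhead-like factors, CCGTTA for OVOL factors, the E-box CACCTG that ZEB1 binds, AGTGAAAG for PRDM1 and CCNNAGGC for ZNF750.
GRHL1, chr2:9951443-9951692: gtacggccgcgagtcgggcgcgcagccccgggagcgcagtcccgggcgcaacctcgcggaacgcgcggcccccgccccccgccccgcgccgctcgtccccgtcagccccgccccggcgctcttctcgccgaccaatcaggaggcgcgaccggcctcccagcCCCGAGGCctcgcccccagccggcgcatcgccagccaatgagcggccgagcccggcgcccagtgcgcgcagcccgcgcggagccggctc
GRHL3, first start, chr1:24319107-24319356: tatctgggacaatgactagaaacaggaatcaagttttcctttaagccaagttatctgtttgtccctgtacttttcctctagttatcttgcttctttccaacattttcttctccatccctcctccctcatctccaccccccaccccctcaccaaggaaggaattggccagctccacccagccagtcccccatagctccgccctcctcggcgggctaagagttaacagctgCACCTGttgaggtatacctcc
GRHL3, second start, chr1:24322790-24323039: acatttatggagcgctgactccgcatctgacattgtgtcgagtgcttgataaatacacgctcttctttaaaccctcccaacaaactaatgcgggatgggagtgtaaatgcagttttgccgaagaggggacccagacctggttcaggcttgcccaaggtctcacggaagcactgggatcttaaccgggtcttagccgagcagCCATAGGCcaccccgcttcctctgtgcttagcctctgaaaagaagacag
PRDM1, first start, chr6:106086086-106086319: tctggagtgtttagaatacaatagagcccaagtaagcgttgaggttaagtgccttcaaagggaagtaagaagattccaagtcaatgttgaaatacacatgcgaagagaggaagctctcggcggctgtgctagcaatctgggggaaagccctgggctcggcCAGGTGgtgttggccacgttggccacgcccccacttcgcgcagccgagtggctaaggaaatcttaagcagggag
PRDM1, second start, chr6:106098691-106098939: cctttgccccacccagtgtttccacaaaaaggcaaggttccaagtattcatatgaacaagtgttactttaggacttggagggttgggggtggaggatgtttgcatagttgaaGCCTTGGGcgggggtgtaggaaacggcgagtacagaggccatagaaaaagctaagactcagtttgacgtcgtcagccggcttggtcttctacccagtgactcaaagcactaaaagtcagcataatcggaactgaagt

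The region before GRHL1 is 81.6% G and C with 45 CpG dinucleotides, whereas that before the first start of GRHL3 is 50.8% G and C with 3 CpG, and the median of the 35116 regions of the table is 58% with 11 CpG. The second start of GRHL3 has 52% and 10 CpG. A ZNF750 motif lies 89 bases before the start of GRHL1, 49 bases before the second start of GRHL3 and 138 bases before the second start of PRDM1, a motif that 23.5% of all regions hold. A ZEB E-box lies 21 bases before the first start of GRHL3 and 90 bases before the first start of PRDM1, and 17.5% of all regions hold one. None of the regions of these genes holds the Grainyhead-like motif, the OVOL motif or the PRDM1 motif, which 0.117%, 2.45% and 1.08% of all regions hold. These matches describe letters in short windows and not binding. ZNF750, OVOL1, OVOL2, ESRP1 and ESRP2 were not among the promoters of the table.

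ZNF750, which the study itself followed up from these samples, rose in VprBP-depleted cells. ZNF750 (ENSG00000141579.7, chr17:82829434-82840022, minus strand, 3 exons) had 231, 142 and 171 normalized counts in Control sh against 735, 1000 and 957 in VprBP sh. Again no control sample came near the VprBP-depleted samples. The mean went from 181 ± 45.1 to 897 ± 142 (SD, n = 3), with a fitted log2 fold change of 2.31 (SE 0.19, 95% interval 1.88 to 2.74, adjusted p = 2.91e-06 in edgeR). The whole gene lies inside TBCD on the opposite strand, a tubulin folding cofactor with 1855 ± 174 and 2749 ± 11.3 normalized counts, whose log2 fold change of 0.57 (adjusted p = 0.000218) was not called. Whether the counting used strand is not given in the sources used here for this table, so reads of overlapping genes may not be fully told apart.

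Among the partners of ZNF750, none of the 4 corepressor genes was called by edgeR, DESeq2 or limma-voom, where edgeR called 46.4% of all genes tested. In edgeR, KDM1A (adjusted p = 0.0126) and CTBP2 (adjusted p = 7.55e-05) passed the adjusted p but not the fold. RCOR1 (adjusted p = 0.991) and CTBP1 (adjusted p = 0.0514) did not pass the adjusted p. The log2 fold changes were 0.32 for KDM1A, a histone demethylase, 0.00 for RCOR1, -0.23 for CTBP1 and -0.58 for CTBP2. Their median of -0.12, against 0.08 for all genes tested, became 0.10 when counts were scaled by library size alone. TP63, the factor above ZNF750 in the epidermis, had 10101, 8338 and 8349 normalized counts in Control sh against 10, 8.31 and 9.97 in VprBP sh, a log2 fold change of -9.86 (SE 0.16, adjusted p = 3.24e-10 in edgeR). KLF4, a differentiation factor that ZNF750 is known to act through, had 494, 236 and 241 in Control sh against 481, 626 and 651 in VprBP sh, overlapping between groups, and its log2 fold change of 0.86 (adjusted p = 0.0147) did not reach 2-fold.

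OVOL1 fell. OVOL1 (ENSG00000172818.10, chr11:65787063-65797214, plus strand) had 306, 183 and 181 normalized counts in Control sh against 41.3, 68.6 and 89.7 in VprBP sh. The lowest control sample still lay above the highest VprBP-depleted sample. The mean went from 223 ± 71.7 to 66.5 ± 24.3, with a fitted log2 fold change of -1.72 (SE 0.30, 95% interval -2.40 to -1.04, adjusted p = 0.000545 in edgeR). Replicate 1 held the highest control value and the lowest VprBP-depleted value, and without replicate 1 of both groups the log2 fold change was -1.18 (adjusted p = 1.04e-05).

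For OVOL2 no difference was detectable. OVOL2 (ENSG00000125850.11, chr20:17956979-18059188, minus strand) had 299, 317 and 384 normalized counts in Control sh against 300, 362 and 366 in VprBP sh, and the groups overlapped throughout. The log2 fold change was 0.04 with a 95% interval of -0.28 to 0.35 (adjusted p = 0.812 in edgeR), and its sign turned with the scaling (-0.06 with TMM factors and -0.08 in DESeq2). SNX5, a sorting nexin whose gene shares its strand and covers 1 exon of OVOL2, had 3755 ± 264 and 2166 ± 115 normalized counts, and MGME1, a mitochondrial nuclease encoded inside an intron on the other strand, fell by 1.07 on the log2 scale.

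The balance of the OVOL pair therefore changed through OVOL1. Per kilobase of exon, OVOL2 lay 1.69, 3 and 3.66 times above OVOL1 in the control samples and 12.6, 9.1 and 7.04 times above it in the VprBP-depleted samples. The log2 of this ratio differed by 1.81 between groups (exact two-sided permutation p = 0.1, again the lowest value reachable). OVOL1 made up 27.9% ± 8.27 of the pair in Control sh against 9.91% ± 2.53 in VprBP sh. OVOL3, the third member of the family, had at most 7.82 normalized counts in any sample and was not tested.

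PRDM1 fell as well. PRDM1 (ENSG00000057657.17, chr6:105993463-106109939, plus strand) had 169, 97.8 and 101 normalized counts in Control sh against 73.7, 38.4 and 37.6 in VprBP sh. Replicate 1 was the highest sample in both groups, and the groups did not overlap. The mean went from 123 ± 40.2 to 49.9 ± 20.6, with a log2 fold change of -1.31 (SE 0.33, 95% interval -2.05 to -0.57, adjusted p = 0.00463 in edgeR). The interval includes changes under 2-fold, and a test against a 2-fold change itself gave an adjusted p of 0.16. ATG5, an autophagy gene that runs through the same locus on the opposite strand, fell by 0.42 on the log2 scale and was not called.

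Among 11 other PRDM genes with a row in the table, 8 were tested, of which 1 was called higher, 2 lower and 5 not, 37.5% called against 46.4% of all genes, with a median log2 fold change of 0.26 against 0.08 for all genes. MECOM, a hematopoietic and epithelial transcription factor, had 574 ± 49.2 normalized counts in Control sh against 0 in every VprBP sh sample, at least 196-fold lower against a floor of 3 counts per sample. PRDM8 likewise went from 117 ± 22.4 to 0 in every sample, at least 40.1-fold lower. PRDM6 was the called gene that rose, and it stood at 12.1 ± 6.56 and 38.4 ± 1.91.

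Of the splicing regulators, ESRP1 fell by less than 2-fold. ESRP1 (ENSG00000104413.18, chr8:94641074-94707466, plus strand) had 4140, 4249 and 4054 normalized counts in Control sh against 3505, 3203 and 3016 in VprBP sh. Each VprBP-depleted sample lay below each control. The mean went from 4148 ± 97.9 to 3242 ± 246, with a log2 fold change of -0.36 (SE 0.08, 95% interval -0.54 to -0.17, adjusted p = 0.00294 in edgeR), which passed the adjusted p but not the fold. With library size alone the log2 fold change was -0.14 and did not pass the adjusted p either (0.148 in edgeR).

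ESRP2 rose, and its call stood at the edge of the cutoff. ESRP2 (ENSG00000103067.14, chr16:68229033-68238102, minus strand) had 729, 813 and 759 normalized counts in Control sh against 1427, 1680 and 1598 in VprBP sh. The groups stood far apart relative to their spread, at 767 ± 42.6 and 1568 ± 129. The log2 fold change was 1.03 (SE 0.10, 95% interval 0.81 to 1.25, adjusted p = 7.4e-06 in edgeR), a fitted 2.04-fold. It fell under 2-fold with TMM factors (0.93), in DESeq2 (0.91), without Control sh replicate 1 (0.99) and without VprBP sh replicate 2 (0.98), and a test against a 2-fold change gave an adjusted p of 0.372. NFATC3, whose gene overlaps the 3' end of ESRP2 on the opposite strand, had a log2 fold change of 0.55, and a lncRNA that overlaps it on the same strand (ENSG00000262160) had 1.24.

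The make-up of the ESRP pair shifted, while its summed level overlapped between groups. ESRP1 lay 6.04, 5.56 and 5.68 times above ESRP2 per kilobase of exon in the control samples and 2.61, 2.03 and 2.01 times above it in the VprBP-depleted samples. ESRP2 accounted for 14.8% ± 0.541 of the pair in Control sh against 31.3% ± 3.15 in VprBP sh (SD, n = 3). The summed level was 990, 1028 and 978 normalized counts per kilobase in Control sh against 994, 981 and 927 in VprBP sh. An exact two-sided permutation test of these sums gave p = 0.5, and unlike the shares they depend on the scaling between samples. With the longest transcript of each gene as its length, the share of ESRP2 was 16.9% and 34.8%.

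**Figure D3:**
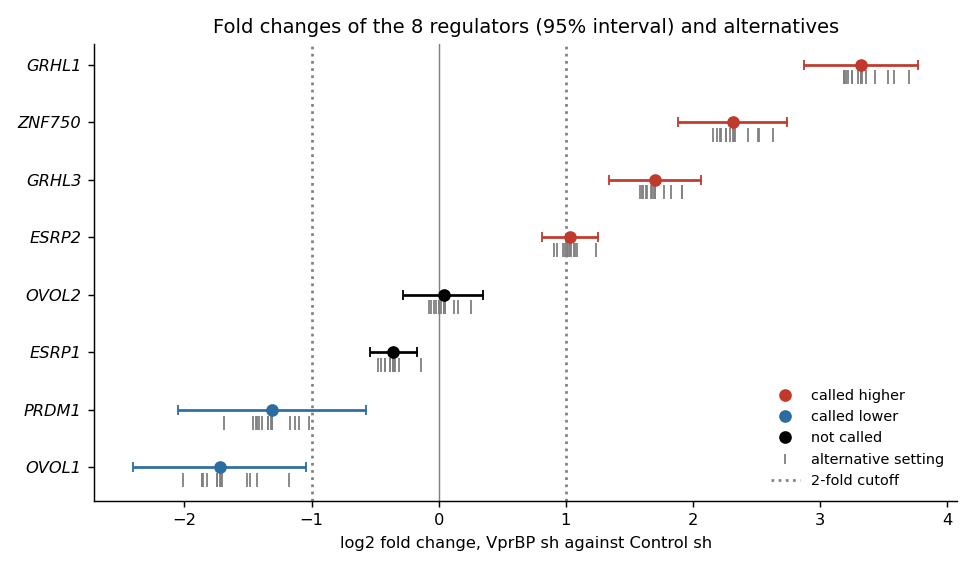
Log2 fold changes (x axis, VprBP sh against Control sh) of the 8 regulators with 95% intervals, and grey marks for the 15 alternative settings of each gene. GRHL1 lies at 3.32 and OVOL1 at -1.72, the alternatives of OVOL2 fall on both sides of 0, and those of ESRP2 fall on both sides of the 2-fold line.

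The order of the 8 genes by level per kilobase also changed. In Control sh ESRP1 stood first at 851 ± 20.1 normalized counts per kilobase, followed by OVOL2 (151 ± 20.3), ESRP2 (148 ± 8.2), OVOL1 (58.7 ± 18.8), ZNF750 (57.4 ± 14.3), GRHL3 (34.4 ± 3.21), GRHL1 (30.7 ± 9.05) and PRDM1 (18.2 ± 5.96). The samples of OVOL2 and ESRP2, of OVOL1 and ZNF750, and of GRHL3 and GRHL1 overlapped, so that their order is not resolved. In VprBP sh ESRP1 was still first at 665 ± 50.5, but GRHL1 (304 ± 43.5), ESRP2 (302 ± 24.9) and ZNF750 (284 ± 45.1) now followed, with overlap between GRHL1 and ESRP2 and between ESRP2 and ZNF750. OVOL2 (155 ± 16.6) and GRHL3 (111 ± 19) came next, and OVOL1 (17.5 ± 6.38) and PRDM1 (7.39 ± 3.05), which touched each other, came last. With the length of the longest transcript in place of all exons, levels were 1 to 1.51 times as high and the order changed only where samples overlapped, ESRP2 passing OVOL2 in the Control sh samples and GRHL1 in the VprBP sh samples.

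**Figure D4:**
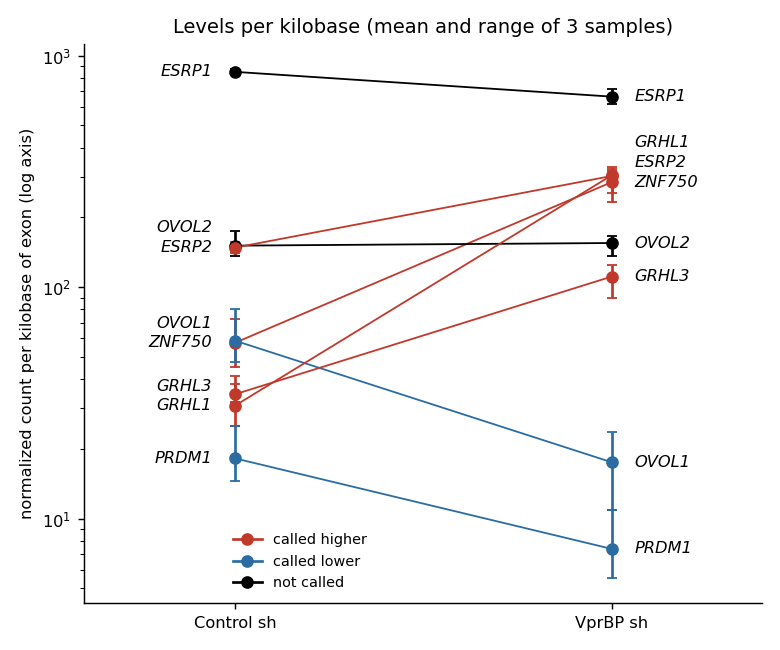
Level per kilobase of exon (y axis, log scale) of each regulator in both groups, as the mean with the lowest and highest of 3 samples, with lines joining the same gene. By mean, GRHL1 goes from 30.7 to 304, from place 7 to place 2, while OVOL1 goes from 58.7 to 17.5. The samples of GRHL1 overlap those of GRHL3 in Control sh and those of ESRP2 in VprBP sh, so that these places are not resolved.

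The wider set of epithelial transcription factors did not move as 1 group. Of 16 genes, 14 were tested, of which 3 were called higher, 5 lower and 6 not, 57.1% called against 46.4% of all genes, with a median log2 fold change of -0.35 against 0.08 for all genes tested. MAF, a leucine zipper factor of differentiating keratinocytes, went from 219 ± 32.7 to 0 in every sample, at least 74.8-fold lower. HOPX, a homeodomain protein of differentiating epithelium, went from 163 ± 17.4 to at most 1 count in any sample, at least 55.8-fold lower.

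The terminal differentiation genes that stand downstream of ZNF750, GRHL3 and PRDM1 in the epidermis were split. Of 24 genes listed 20 had a row and 17 were tested, of which 5 were called higher, 10 lower and 2 not, 88.2% called against 46.4% of all genes, with a median of -2.23 against 0.08. CALML5, a calmodulin-like protein of the upper epidermis, had 24.3, 22.8 and 17.1 normalized counts in Control sh against 1221, 1736 and 1580 in VprBP sh, a log2 fold change of 6.15 (adjusted p = 7.81e-09 in edgeR). PPL, which encodes the cornified envelope protein periplakin, went from 7732 ± 700 to 0 in every VprBP sh sample, at least 2646-fold lower. The cornified envelope precursors SPRR2A and SPRR1B were at least 54.9-fold and at least 51.7-fold lower. KRT5 and TP63, genes of basal epithelial cells, fell along with the genes of this list that were called lower, and the part of such cells in these counts was not tested.

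Of the junction and polarity genes, among them known targets of Grainyhead-like factors, all 20 were tested. Of these 7 were called higher, 1 lower and 12 not, 40% called against 46.4% of all genes, with a median of 0.58 against 0.08 for all genes. CLDN3, a tight junction claudin, had 19.7, 9.78 and 2.84 normalized counts in Control sh against 2469, 4075 and 3857 in VprBP sh, a log2 fold change of 8.38 (SE 0.37, adjusted p = 4.3e-08 in edgeR). The tight junction genes TJP3 (2.83), MARVELD3 (1.81) and CLDN7 (1.68) were also called higher on the log2 scale. F11R, which encodes a junctional adhesion molecule, was the gene called lower, with -1.51. CDH1, the epithelial cadherin and a known target of GRHL2, had 10748, 9695 and 9906 in Control sh against 5595, 6956 and 7078 in VprBP sh, a log2 fold change of -0.63 (adjusted p = 0.000361) that was not called.

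A list of inducers and markers of epithelial-mesenchymal transition, which OVOL factors are known to oppose, was called in both directions. Of 12 listed, 11 had a row and 10 were tested, of which 3 were called higher, 6 lower and 1 not, where 24.5% of all genes were called higher and 22% lower. The median was -3.98, or -2.81 with the genes at the floor set to their bound, against 0.08 for all genes tested. ZEB1, a direct target of OVOL repression, had at most 7.27 normalized counts in any sample and was not tested. SNAI2, an inducer of epithelial-mesenchymal transition, went from 1745 ± 375 to 0, at least 597-fold lower, CDH2, the neural cadherin, from 197 ± 106 to 0, at least 67.5-fold lower, and the matrix gene SPARC was at least 2354-fold lower. TWIST2 went the other way, from 0 in every control sample to 508 ± 108, at least 159-fold higher. Fibroblast markers went lower along with the lower genes of this list, COL1A2, PDGFRB and LUM being called, and their part in it was not tested.

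Around ESRP1 and ESRP2, 14 of 15 other splicing regulators in the table were tested, of which 3 were called higher, 2 lower and 9 not, a share of 35.7% called against 46.4% of all genes, with a median of 0.40 against 0.08. RBM47, which acts with the ESRPs on epithelial exons, had 2043, 1682 and 1737 normalized counts in Control sh against 3266, 4067 and 4025 in VprBP sh, a log2 fold change of 1.06 (SE 0.11, adjusted p = 1.9e-05 in edgeR). MBNL3 rose by 2.46 on the log2 scale. QKI, a regulator of mesenchymal exons, fell by 1.42, and RBM24, a muscle splicing factor, went from 121 ± 19.1 to at most 2 counts in any sample, at least 41.3-fold lower.

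Of 16 genes with exons that the ESRPs are known to regulate, none was called higher by edgeR, DESeq2 or limma-voom. In edgeR 3 were called lower and 13 were not called, 18.8% called against 46.4% of all genes. The median was -0.32 against 0.08. An unadjusted p under 0.05 in edgeR was found for 11 of the 16, of which 2 had a positive log2 fold change. The share of all genes under that cutoff was not counted. The values are whole-gene counts and hold nothing on which exons were used. SLC37A2, a sugar phosphate transporter, had 971, 852 and 774 normalized counts in Control sh against 31.3, 28.1 and 21.5 in VprBP sh, a log2 fold change of -5.02. The ESRP targets most used to read epithelial splicing stayed under 2-fold, with log2 fold changes of -0.31 for FGFR2, -0.17 for CD44, 0.87 for ENAH and -0.80 for CTNND1.

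**Figure D5:**
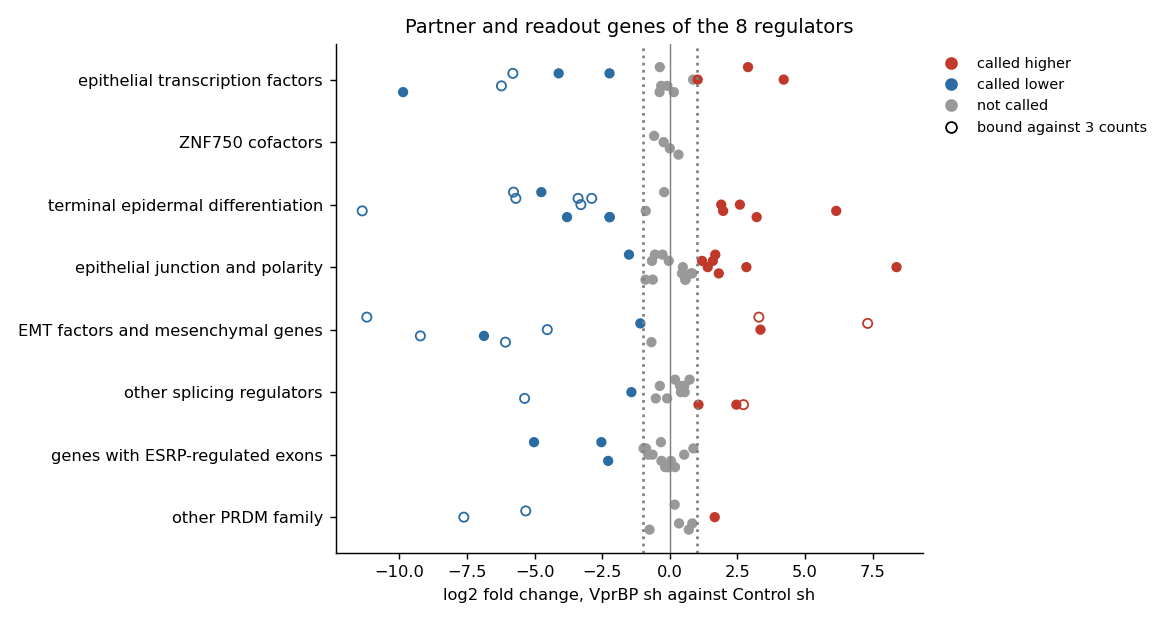
Log2 fold changes (x axis) of the tested genes of 8 lists around the regulators (y axis), red when called higher, blue when called lower and grey when not called, with open circles for bounds against 3 counts where a group had at most 3 counts in every sample. The ZNF750 cofactors lie between -0.58 and 0.32, while the terminal differentiation genes spread from CALML5 at 6.15 to PPL.

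The genes with the most similar profile to each regulator were named by the smallest mean absolute difference of centred log2 values over the 6 samples, among 13319 genes. CTSO, EFS and CD82 came nearest to ZNF750 (0.081 to 0.093). TP53INP2, CASZ1 and SLC25A45 were nearest to GRHL1 (0.076 to 0.096), and PGLS, ANXA6 and CPE to GRHL3 (0.028 to 0.049). SDC4, TMEM8B and ADAMTSL5 were nearest to OVOL1, each at 0.11. For PRDM1, ATF3 lay at 0.079, and CCDC18-AS1 and AKR1B1 followed at 0.16 and 0.17. SYBU, POLR2I and KCTD10 were nearest to OVOL2, SENP6, PAFAH1B1 and NUP98 to ESRP1, and GET3, BABAM1 and DDX41 to ESRP2. The number of genes within 0.2 was 13 for PRDM1, 33 for OVOL1, 52 for GRHL1 and 125 for ZNF750, against 475 for GRHL3, 1702 for ESRP2, 2486 for OVOL2 and 2771 for ESRP1, so that a near profile is a common thing for the last 4. These profiles are led by the difference between the groups and share all 6 libraries.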

How the data were processed

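RNA-seq was performed with 3 Control sh and 3 VprBP sh samples, grouped and numbered by their labels. Single-end reads were aligned by the authors with STAR (hg38), and gene-level quantification in Partek Flow gave the deposited estimated counts, neither normalized nor pooled. Of these values 59.4% are whole numbers, and each of the 21494 genes sums to at least 10. The labels name a SMARTER kit and the study's methods a stranded KAPA kit. Since the design had assumed counts or estimated counts, values were rounded to whole numbers before the test.

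VprBP sh was compared with Control sh in edgeR 4.0.16 (R 4.3.3) with upper quartile factors (quantile 0.75), its filter on low counts (minimum 10, leaving 16756 genes) and the quasi-likelihood test without a replicate block. It replaces Partek Flow's Gene Specific Algorithm. Calls needed an adjusted p under 0.05 with a fold change over 2. Standard errors are the log2 fold change over the square root of F. Where no library of a group exceeded 3 counts, the group was set to 3 counts (2.3 to 3.48 normalized counts), which covers counting error only. Alternatives used limma 3.58.1 (voom) and DESeq2 1.42.0. Exon lengths and overlaps came from GENCODE 44, whose gene spans equal the deposited ones for all 8 genes, and upstream sequences from RefSeq (GRCh38.p14), which held 3 of the 8 genes.

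The regulators, the gene lists and the tests were chosen with earlier results of these data known. Beside the 8 regulators, DCAF1, near partners, paralogs and overlapping genes, the text names in each list up to 4 called genes with the largest fold changes among those whose higher group averaged 100 normalized counts or more, and the 3 nearest profiles of each regulator among genes averaging 50 or more. PRDM6, F11R, FGFR2, CD44, ENAH and CTNND1 lie outside this rule and were named after their values were seen. Some genes that the rule names are not reported here.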

Additional observations from a re-analysis of the deposited data

How the results depend on the processing

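The number of called regulators ran from 4 to 6 over 15 alternatives. It was 4 when tested against a 2-fold change, which dropped PRDM1 and ESRP2. The log2 fold changes ran from 2.16 to 2.63 for ZNF750, -2.01 to -1.18 for OVOL1, 3.19 to 3.70 for GRHL1, 1.58 to 1.91 for GRHL3, -1.69 to -1.02 for PRDM1, -0.48 to -0.14 for ESRP1 and 0.91 to 1.24 for ESRP2, each keeping its sign. That of OVOL2 turned to -0.06 with TMM factors and -0.08 in DESeq2, and leaving out 1 replicate at a time gave -0.04 to 0.15. That of ESRP1 stood at -0.14 with library size alone, where its adjusted p was 0.148 in edgeR. DCAF1 stood at -0.37 (adjusted p = 0.0851 in edgeR) with library size alone and at -0.58 (adjusted p = 1) when tested against 2-fold, and leaving out 1 replicate gave -0.82 to -0.46.

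With at least 10 counts in every sample, which removes genes near 0 in either group, the genes called were 5 epithelial transcription factors, 5 terminal differentiation genes, 3 mesenchymal genes, 3 splicing regulators, 0 PRDM genes, 3 urothelial markers, 0 fibroblast markers and 0 immune markers. DESeq2 called 5 genes with ESRP-regulated exons, and 5 PRDM genes were called without a filter. The causes of these last changes were not tested. Over all genes 7778 were called in the main test (4097 higher, 3681 lower), 4690 of 13103 with that filter, 7685 with TMM factors (3747 higher, 3938 lower), 7621 in DESeq2 (3634 and 3987) and 8147 with library size alone (4899 and 3248), while log2 fold changes had a median of 0.08 in the main test, -0.01 with TMM factors, -0.04 in DESeq2 and 0.29 with library size alone.

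The replicate numbers are shared between groups, and the values gave no sign that they pair the samples. Correlations of deviations were -0.145, -0.0298 and -0.106 for replicates 1, 2 and 3 over 13320 genes, which cannot exclude a pairing. With the replicate block 7686 genes were called over all genes and 6 of the 8 regulators, and DCAF1 had a log2 fold change of -0.60.

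The intervals of PRDM1 and OVOL1 are the widest of the 8. Their VprBP sh samples held 37 to 66 and 37 to 117 counts. Without replicate 1 of both groups their adjusted p in edgeR was 3.49e-05 and 1.04e-05. The log2 fold changes were then -1.39 and -1.18, against -1.31 and -1.72 with all samples. Those smaller p-values rest on replicates 2 and 3 alone, which lay nearest to each other in both groups, and are not to be read as stronger support. The cause of the width was not tested. With 3 samples a group, an exact permutation test cannot go below 0.1.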
